A study of Mus musculus with 9 samples.

Results

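The transcripts of 10 primitive streak and early mesendoderm genes were followed in embryoid bodies (EBs), the aggregates in which embryonic stem (ES) cells begin to differentiate. The genes were *Wnt3*, *Fgf8*, *T*, *Eomes*, *Sp5*, *Mixl1*, *Evx1*, *Gsc*, *Lhx1* and *Mesp1*. They were listed by name as known streak genes, with no threshold on a measured value, but with earlier results of these data known. They were matched by symbol to 10 of the 55471 Ensembl gene IDs in the count table. RNA sequencing covered 9 libraries in 3 groups of 3. WT EBs came from the parental mouse ES line E14. KO EBs were *Tnfaip2*-/-, from an ES clone of that line with a CRISPR frameshift and a premature stop codon in the second exon of *Tnfaip2*. KO_PAPC EBs were *Tnfaip2*-/- and were given a fatty acid and its carnitine ester, palmitic acid with palmitoyl-L-carnitine (PA/PC), each at a dose of 8 μM. By the study's methods, PA/PC was present in the 3 days of EB formation and in the 3 days of differentiation. Formation with PA/PC is described in MEF (embryonic fibroblast) medium, and formation without it in ES cell medium. As described, the agents and the formation medium cannot be told apart. For the comparison of KO with KO_PAPC the study's text names a vehicle control. All EBs were formed in hanging drops and harvested after 3 days of in vitro differentiation on gelatin. WT EBs with PA/PC were not analysed here, so the agents were compared in the KO background alone, and with 1 KO clone the genotype and the clone cannot be told apart.

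The primitive streak is the furrow of the gastrulating embryo through which epiblast cells leave to become mesoderm and definitive endoderm. Nodal, BMP and canonical Wnt signals from the epiblast and its neighbours induce it. The cells answer with T-box, homeobox and zinc finger transcription factors, and FGF signals carry them out of the streak. EBs switch on the same genes without an embryo around them.

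Library totals ran from 27362913 to 28914312 counts, and levels are given as CPM, counts per 1000000 counts of the library, on which scale 3 counts amounted to 0.104 to 0.110. *Tnfaip2* itself had 6 to 16 counts in WT, 5 to 8 in KO and 14 to 25 in KO_PAPC libraries, so WT and KO overlapped at a level too low to check the labels, and a frameshift need not remove the transcript. Pluripotency genes were abundant in every library, with a summed level of 3321 to 3368 CPM in WT, 4995 to 4996 in KO and 3054 to 3176 in KO_PAPC. The streak genes were rare beside them, and their 10 levels summed to 49.4 to 52.0 CPM in WT, 28.1 to 29.4 in KO and 77.8 to 80.9 in KO_PAPC libraries. In bulk RNA of this kind, fewer cells of a type and less RNA per cell cannot be told apart.

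*T*, *Sp5*, *Wnt3*, *Fgf8* and *Evx1* shared an order of the 3 groups. For these 5 genes every KO library lay below every WT library, and every WT library lay below every KO_PAPC library. The same order was found in 1898 of 17675 genes (10.7%). In KO against WT, *T*, *Wnt3*, *Evx1* and *Sp5* passed the low-count filter only through WT libraries. For *Wnt3*, 2 KO libraries also reached the cutoff, too few for the filter by themselves. In KO_PAPC against KO, *T*, *Wnt3*, *Evx1* and *Sp5* passed it only through KO_PAPC libraries. The adjusted p-values of these genes in those comparisons, given below, are a description. *Mixl1* was higher in KO_PAPC than in both other groups, *Eomes* was lower in KO than in both other groups, *Gsc* was higher in both *Tnfaip2*-/- groups, and *Lhx1* was lowest in KO_PAPC. *Mesp1* stayed at 2 to 9 counts per library.

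**Figure D1:**
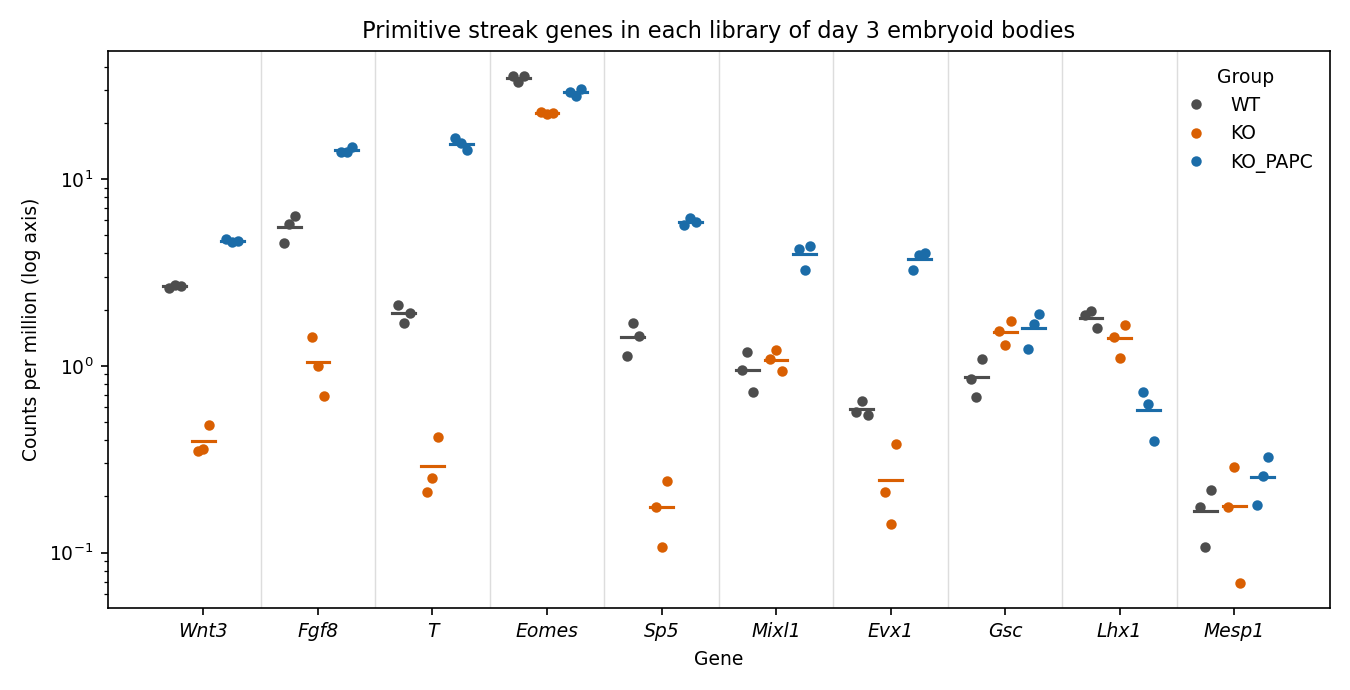
Level of each of the 10 streak genes in CPM on a log axis. Each point is 1 of 9 libraries, coloured by group, and the KO_PAPC points of *T* (14.2 to 16.5 CPM) stand far above the KO points (0.210 to 0.415 CPM).

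The upstream DNA of 4 of the 5 genes in that order is shown because Wnt, Nodal and T-box factors act on the streak and their motifs can be looked for in it. RefSeq windows matched 8 of the 10 genes on GRCm38.p6, and *Fgf8* and *Mixl1* had none. The windows are given 5′ to 3′ on the gene's strand up to the base before the annotated start. They are chr17:8434173-8434422 for *T*, chr2:70474673-70474922 for *Sp5*, chr6:52313248-52313497 for *Evx1* and chr11:103773925-103774149 for *Wnt3*, all on the + strand. Capitals mark matches, on either strand, to a TCF/LEF motif (CTTTGA), a T-box motif (TCACAC), a FOXH1 motif (ATCCACA) or a SMAD motif (CAGACA).
T: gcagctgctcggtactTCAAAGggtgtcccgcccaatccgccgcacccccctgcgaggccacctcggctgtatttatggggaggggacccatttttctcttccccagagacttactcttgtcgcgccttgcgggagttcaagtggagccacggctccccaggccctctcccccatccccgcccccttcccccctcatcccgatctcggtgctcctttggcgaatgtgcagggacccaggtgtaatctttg
Sp5: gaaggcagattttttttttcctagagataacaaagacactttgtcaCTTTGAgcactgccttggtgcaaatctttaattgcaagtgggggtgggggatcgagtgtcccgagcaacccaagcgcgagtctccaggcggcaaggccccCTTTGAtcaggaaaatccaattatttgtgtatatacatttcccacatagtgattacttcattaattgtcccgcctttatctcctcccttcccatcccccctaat
Evx1: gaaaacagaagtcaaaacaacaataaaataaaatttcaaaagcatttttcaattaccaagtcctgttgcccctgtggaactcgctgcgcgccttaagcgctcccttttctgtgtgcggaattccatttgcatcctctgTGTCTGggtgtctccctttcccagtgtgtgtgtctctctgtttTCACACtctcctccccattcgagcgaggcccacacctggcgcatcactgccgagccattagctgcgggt
Wnt3: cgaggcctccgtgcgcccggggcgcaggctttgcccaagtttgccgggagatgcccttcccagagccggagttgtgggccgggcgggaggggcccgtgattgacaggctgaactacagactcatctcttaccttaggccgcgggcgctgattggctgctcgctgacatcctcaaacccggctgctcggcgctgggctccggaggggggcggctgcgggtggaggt

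CTTTGA lay at position -234 of *T*, as its reverse complement TCAAAG, and at positions -204 and -104 of *Sp5*, counted from the start site. *Evx1* held the T-box motif at -69 and the SMAD motif at -112, on the opposite strand as TGTCTG. *Wnt3* held none of the 4 motifs. CTTTGA was in 3 of the 8 windows searched over their full length (250 bases before to 50 after the start), against 16.0% of 32851 windows of all genes. TCACAC was in 2 of 8 against 14.5%, CAGACA in 1 of 8 against 6913 of 32851 windows, and ATCCACA in 0 of 8 against 3.38%. Besides the windows shown, that of *Mesp1*, which is outside the shared order, held CTTTGA and TCACAC. These are matches of letters, with no test and no measurement of binding.

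*Wnt3* (ENSMUSG00000000125, chromosome 11, 103774150 to 103817957, GRCm38) encodes the Wnt ligand that is needed for a streak to form. Its counts were 74, 75 and 74 in WT, 10, 10 and 14 in KO, and 132, 126 and 129 in KO_PAPC libraries. The replicates were tight and the 3 groups did not touch. *Wnt3* fell in KO against WT by 2.73 ± 0.21 on the log2 scale (SE; 6.63 times lower; edgeR adjusted p = 1.59e-13). With PA/PC it rose against KO by 3.70 ± 0.19 (13.0 times; adjusted p = 7.46e-20) and stood 0.97 ± 0.12 above WT (1.96 times; adjusted p = 5.35e-08).

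*Fgf8* (ENSMUSG00000025219, chromosome 19, 45736798 to 45742915, minus strand), the ligand that streak cells need to migrate away, showed the same order. It was counted 128, 159 and 174 times in WT, 41, 28 and 20 times in KO, and 387, 381 and 414 times with PA/PC. The highest KO library lay far under the lowest WT library. The log2 change was -2.40 ± 0.17 in KO against WT (adjusted p = 1.85e-14), 3.93 ± 0.13 in KO_PAPC against KO (adjusted p = 6.07e-26) and 1.54 ± 0.09 in KO_PAPC against WT (2.90 times; adjusted p = 1.06e-13). *Fgf8* is also made at the midbrain-hindbrain boundary. The 6 markers of that tissue summed to 23.0 to 25.1 CPM in WT, 16.7 to 17.2 in KO and 19.7 to 21.7 in KO_PAPC. Within that sum, 4 of the 6 were lower and 2 higher in KO against WT (median log2 change -1.11), and 4 were higher and 2 lower with PA/PC against KO (median 1.80). *En1*, *Wnt1*, *Pax5* and *Pax2* moved in the directions of *Fgf8* in those comparisons, and *En2* and *Pax8* in the opposite directions. *En1* was at -3.16 ± 0.13 in KO against WT and 2.62 ± 0.15 with PA/PC against KO (log2). *Wnt1* was at -4.98 ± 0.45 and 4.18 ± 0.53 (edgeR adjusted p of at most 6.71e-09 for both genes). *Wnt1* had 1 count in every KO library and passed the low-count filter only through the other group. Its values are therefore a description. In KO_PAPC against WT, 3 of the 6 markers were higher and 2 lower (median 0.073). *En1* and *Wnt1* were lower there (log2 -0.54 ± 0.08 and -0.79 ± 0.25), while *Fgf8* was higher. The part of these cells in the *Fgf8* values was not tested.

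*T* (Brachyury, ENSMUSG00000062327, chromosome 17, 8434423 to 8442496), the T-box factor that defines the streak and nascent mesoderm, had the largest PA/PC change of the 10 genes. It had 60, 47 and 53 counts in WT, 6, 7 and 12 in KO, and 458, 429 and 396 in KO_PAPC libraries. No library of a group came near another group. *T* fell in KO by 2.69 ± 0.26 on the log2 scale (6.45 times lower; adjusted p = 2.96e-11), rose with PA/PC by 5.87 ± 0.15 against KO (58.4 times; adjusted p = 1.21e-28), and stood 3.18 ± 0.10 above WT (9.05 times; adjusted p = 9.84e-19).

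*Sp5* (ENSMUSG00000075304, chromosome 2, 70474923 to 70477729), a zinc finger gene switched on directly by Wnt signalling and bearer of the pair of CTTTGA matches above, had the same order of groups as *T*. It was read 32, 47 and 40 times in WT, 5, 3 and 7 times in KO, and 157, 169 and 164 times in KO_PAPC libraries. KO libraries were close to the counting floor, so the size of the KO change rests on few reads. The log2 change was -2.99 ± 0.32 in KO against WT (adjusted p = 3.48e-10), 5.20 ± 0.21 in KO_PAPC against KO (36.8 times; adjusted p = 1.07e-22) and 2.22 ± 0.14 in KO_PAPC against WT (4.65 times; adjusted p = 2.9e-13).

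*Evx1* (ENSMUSG00000005503, chromosome 6, 52313498 to 52318378), a homeobox gene of the posterior streak, had 16, 18 and 15 counts in WT and 6, 4 and 11 in KO libraries. In KO_PAPC it had 91, 107 and 112. Of the 5 genes in this order, KO and WT came closest here, with 11 counts in the highest KO and 15 in the lowest WT library. *Evx1* fell in KO by 1.24 ± 0.36 (log2; adjusted p = 0.00276, and 0.0483 by DESeq2), rose with PA/PC by 4.07 ± 0.23 (16.8 times; adjusted p = 4.88e-18), and stood 2.83 ± 0.18 above WT (7.11 times; adjusted p = 6.8e-13). *Evx1os*, an antisense gene, overlaps 2.54% of its exon bases, and reads that lay on both genes were left out of the counts. *Evx1* also marks spinal interneurons, and the 6 markers of those cells summed to 77.3 to 82.4 CPM in WT, 85.8 to 88.5 in KO and 85.8 to 87.0 in KO_PAPC. Most of that sum was *Tubb3*, a general neuronal tubulin, at 69.3 ± 2.6, 82.0 ± 1.7 and 76.7 ± 0.9 CPM. Of the 5 markers tested in KO against WT, 3 were lower and 1 higher (median log2 change -2.17), and of the 4 tested with PA/PC against KO, 2 were higher and 1 lower (median 0.49). *Lhx5*, a LIM homeobox gene, fell in KO by 3.11 ± 0.22 and rose with PA/PC by 3.78 ± 0.21 (log2; edgeR adjusted p = 8.03e-15 and 9.42e-19). It had 6 to 20 counts per KO library, so these sizes rest on few reads. *Slc32a1*, the vesicular GABA transporter, fell by 2.196 ± 0.224 and rose by 0.90 ± 0.28 (edgeR adjusted p = 1.25e-10 and 0.00406, the latter 0.0683 by DESeq2). *Gad1* did not pass in KO (0.088 ± 0.116, edgeR adjusted p = 0.5) and fell with PA/PC by 0.56 ± 0.13 (edgeR adjusted p = 0.000222). Against WT, KO_PAPC was higher in *Lhx5* (0.67 ± 0.12) and lower in *Gad1* (-0.47 ± 0.13) and *Slc32a1* (-1.295 ± 0.204). The part of these cells in the *Evx1* values was not tested.

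*Mixl1* (ENSMUSG00000026497, chromosome 1, 180693043 to 180697034, minus strand), a homeobox gene of mesendoderm induced by Nodal and BMP, did not share the KO decrease. WT libraries had 27, 33 and 20 counts and KO libraries 31, 34 and 27, which overlap. KO_PAPC libraries had 117, 89 and 122, above all others. The log2 difference between KO and WT was 0.17 ± 0.23 (adjusted p = 0.498). *Mixl1* rose with PA/PC by 2.04 ± 0.17 against KO (4.11 times; adjusted p = 9.6e-14) and stood 2.21 ± 0.18 above WT (4.62 times; adjusted p = 5.23e-11).

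*Eomes* (ENSMUSG00000032446, chromosome 9, 118478212 to 118486132), the T-box factor of the early streak and of definitive endoderm precursors, was by far the most read of the 10, with 1008, 918 and 979 counts in WT, 651, 625 and 652 in KO, and 811, 759 and 844 in KO_PAPC libraries. Its groups did not overlap, yet the changes were small. It fell in KO by 0.62 ± 0.05 (log2; 1.54 times lower; adjusted p = 1.34e-13) and rose with PA/PC by 0.53 ± 0.05 (1.45 times; adjusted p = 7.52e-12). Between KO_PAPC and WT the log2 difference of -0.089 ± 0.050 did not pass (adjusted p = 0.112). That comparison depended on scaling. Scaled to library totals, the median of all genes moved by -0.165, and *Eomes* was called lower in KO_PAPC than in WT (log2 -0.25; adjusted p = 6.88e-05). Without WT replicate 2 it was also called lower (log2 -0.12; adjusted p = 0.047). The gene *Gm33460* overlaps 2.84% of the exon bases of *Eomes*.

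Cells of the extraembryonic lineages make *Eomes* too, in trophoblast and in visceral endoderm. The 8 trophoblast markers summed to 60.0 to 61.1 CPM in WT, 305 to 312 in KO and 31.4 to 34.0 in KO_PAPC. *Tpbpa* and *Prl3d1*, which define later trophoblast, had 0 counts in every library. Most of the KO sum was *Tfap2c* (294 ± 3 CPM, SD, n = 3), which ES cells also transcribe, and *Gcm1* and *Krt7* rose beside it in KO by 3.28 ± 0.18 and 1.71 ± 0.17 (log2; adjusted p = 1.68e-17 and 1.1e-10). Of the 5 trophoblast markers tested in KO against WT, 3 were higher, 0 lower and 2 not called (median log2 change 1.71). With PA/PC against KO, 0 were higher, 4 lower and 1 not called (median -2.65). The 10 visceral endoderm markers summed to 456 to 465 CPM in WT, 288 to 297 in KO and 38.1 to 39.8 in KO_PAPC. In KO against WT 6 of the 10 were higher and 4 lower (median log2 change 0.27). The lower KO sum came mostly from *Cubn*, the endocytic receptor cubilin, at 238 ± 1 CPM in WT and 98.8 ± 2.3 in KO, while *Apob* rose by 1.03 ± 0.05 (log2; adjusted p = 1.8e-18). All 10 were called lower in KO_PAPC than in either other group, and none of the 10 was at 0 throughout a group. The part of either lineage in the *Eomes* values was not tested.

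*Gsc* (goosecoid, ENSMUSG00000021095, chromosome 12, 104471209 to 104473330, minus strand), a homeobox repressor of the anterior streak, went the other way in KO. It had 24, 19 and 30 counts in WT, 44, 36 and 50 in KO, and 34, 46 and 53 in KO_PAPC libraries. Both *Tnfaip2*-/- groups lay above WT and overlapped each other. *Gsc* rose in KO by 0.80 ± 0.21 (log2; 1.74 times; adjusted p = 0.00117) and stood 1.04 ± 0.22 above WT with PA/PC (2.06 times; adjusted p = 0.0002), and the step from KO to KO_PAPC, 0.24 ± 0.19, did not pass (adjusted p = 0.245).

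*Lhx1* (ENSMUSG00000018698, chromosome 11, 84518284 to 84525535, minus strand), a LIM homeobox gene of the anterior mesendoderm, was the only member called lower with PA/PC than in KO. Counts were 53, 55 and 44 in WT, 41, 31 and 48 in KO, and 20, 17 and 11 in KO_PAPC libraries. WT and KO overlapped, and all KO_PAPC libraries lay below both. *Lhx1* fell with PA/PC by 1.11 ± 0.25 against KO (log2; adjusted p = 0.000144) and by 1.48 ± 0.23 against WT (adjusted p = 3.03e-06). In KO against WT the log2 difference of -0.37 ± 0.18 did not pass (adjusted p = 0.0677), but did without WT replicate 3 (log2 -0.46; adjusted p = 0.0423) or without KO replicate 3 (log2 -0.51; adjusted p = 0.0279). *Lhx1* is also a gene of the anterior visceral endoderm, for which no separate list of markers was made. The general visceral endoderm markers fell with PA/PC as given above. Intermediate mesoderm makes *Lhx1* too, and its 5 markers summed to 9.13 to 10.3 CPM in WT, 13.0 to 15.6 in KO and 19.9 to 20.3 in KO_PAPC. *Wt1* made up most of the rise of that sum, at 4.50 ± 0.02, 11.5 ± 0.9 and 15.8 ± 0.9 CPM. Of the 4 intermediate mesoderm markers tested, 1 was higher and 2 lower in KO against WT (median log2 change -0.67), among them *Six2* at -3.76 ± 0.36 and *Eya1* at -1.27 ± 0.23 (adjusted p = 2.61e-11 and 1.05e-05), and 3 were higher and 1 lower with PA/PC against KO (median 0.73). In KO against WT, *Six2* had 2 to 3 counts per KO library and passed the low-count filter only through WT, so its value is a description. The part of either tissue in the *Lhx1* values was not tested.

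*Mesp1* (ENSMUSG00000030544, chromosome 7, 79792241 to 79793788, minus strand), the bHLH factor of the earliest cardiac and cranial mesoderm, was hardly transcribed. It had 5, 3 and 6 counts in WT, 5, 8 and 2 in KO, and 5, 7 and 9 in KO_PAPC libraries. All groups overlapped, and the low-count filter removed the gene from every comparison. Without that filter the log2 differences were 0.055 for KO against WT, 0.70 for KO_PAPC against KO and 0.76 for KO_PAPC against WT, with edgeR adjusted p of 0.977, 0.288 and 0.27. A change was not detectable at this depth.

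**Figure D2:**
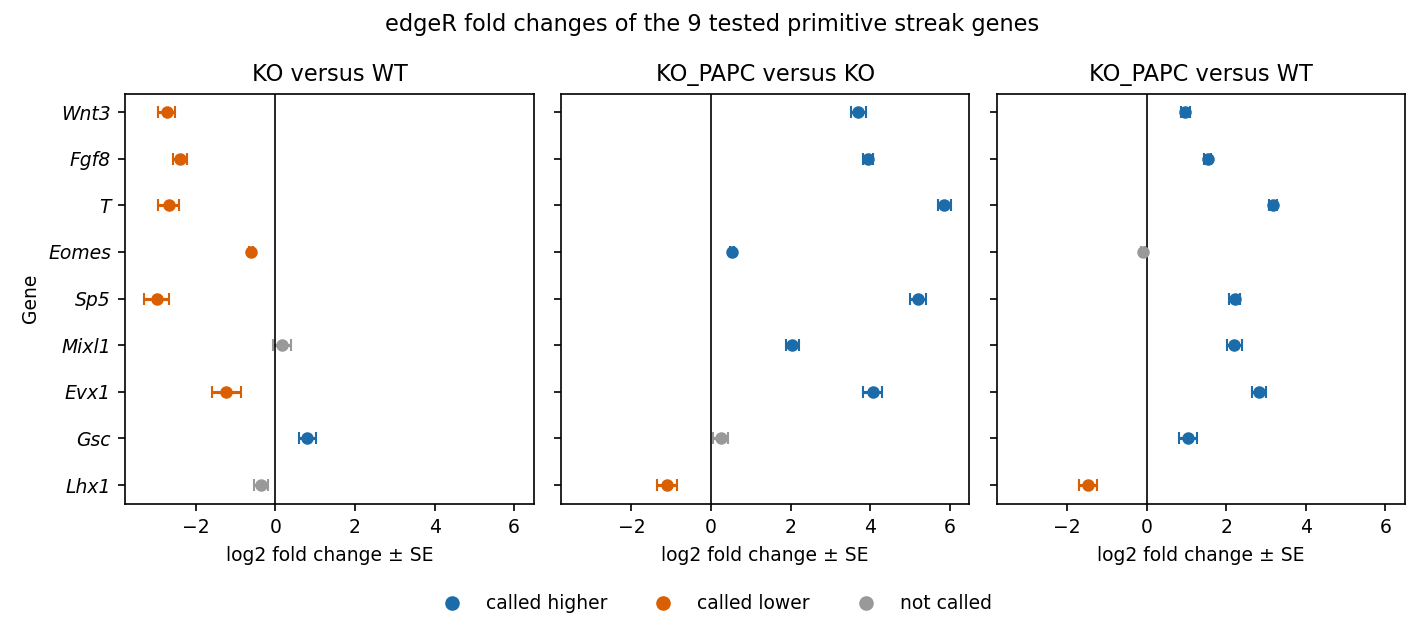
Log2 fold change with its SE for the 9 tested streak genes in the 3 comparisons, from edgeR on 3 against 3 libraries. Blue points were called higher, orange lower and grey not called at an adjusted p of 0.05, and *T* has the rightmost point of the KO_PAPC versus KO panel at 5.87.

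Across the list, 6 of the 10 genes were called lower and 1 higher in KO against WT, 2 were not called and *Mesp1* was not tested. In this comparison 73.8% of all 17355 genes tested were called, 36.8% higher and 37.1% lower, so a call by itself sets no gene apart here. Against a minimum change of 2-fold, 4 members were called, all lower (*T*, *Wnt3*, *Fgf8*, *Sp5*), where 9.14% of all genes were called, 5.36% higher and 3.79% lower. The median log2 change of the 9 tested members was -1.24, beside -0.0059 over all genes. *T*, *Wnt3*, *Evx1* and *Sp5* passed the low-count filter only through their WT libraries, so these counts and this median are a description.

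With PA/PC against KO, 7 members were called higher and 1 lower, where 81.8% of 17167 genes were called, 39.6% higher and 42.2% lower (38.0% of the calls were higher when scaled to library totals, against 48.4%). Against a minimum change of 2-fold 6 were called, all higher (*T*, *Sp5*, *Evx1*, *Fgf8*, *Wnt3*, *Mixl1*), where 20.7% of all genes were called, 6.26% higher and 14.4% lower. The median log2 change of the members was 3.70, beside -0.017 over all genes, and *T*, *Wnt3*, *Evx1* and *Sp5* passed the filter only through KO_PAPC libraries. The counts and the median of this comparison are therefore also a description. In KO_PAPC against WT, 7 members were called higher and 1 lower, where 70.6% of 16655 genes were called, 34.2% higher and 36.4% lower (30.3% of the calls were higher with library totals, against 48.4%). Here 5 members were called at a minimum change of 2-fold, all higher (*T*, *Evx1*, *Sp5*, *Mixl1*, *Fgf8*), where 8.02% of all genes were called, 0.961% higher and 7.05% lower. The median of the members was 1.54, beside -0.017 over all genes, and the filter kept none of them through 1 group alone. The ranges of the 3 and 3 libraries did not overlap for 7, 8 and 9 members in the 3 comparisons in this order, against 75.2%, 82.1% and 73.0% of all genes tested. The 3 comparisons share libraries pairwise and are not independent.

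The make-up of the streak transcripts changed with the groups. *Eomes* gave 66.8% to 70.6% of the 10 genes' counts in WT, 77.3% to 79.5% in KO and 35.6% to 37.4% in KO_PAPC libraries. *T*, *Sp5*, *Wnt3*, *Fgf8* and *Evx1* gave 21.7% to 25.2%, 6.62% to 8.10% and 53.9% to 56.9%. The grouping of these 5 was made from their order across the groups, so their shares are a description.

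**Figure D3:**
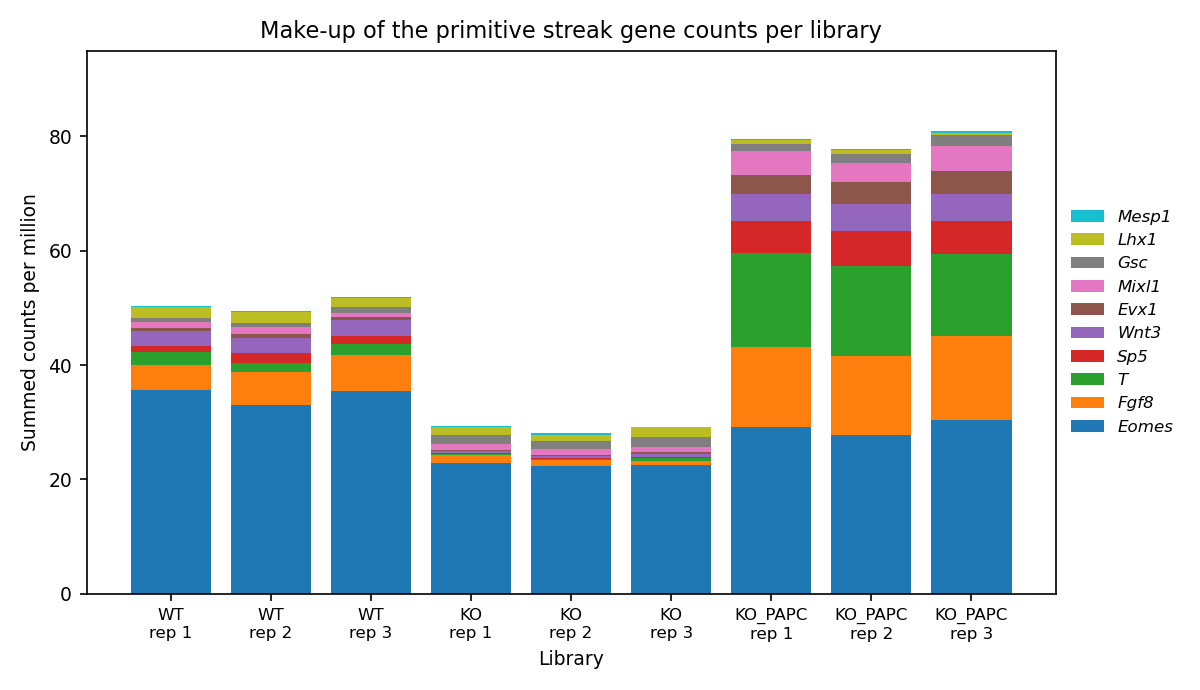
Summed CPM of the 10 streak genes in each of the 9 libraries, stacked by gene. *Eomes* fills 77.3% to 79.5% of the KO bars and 35.6% to 37.4% of the taller KO_PAPC bars.

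Levels of different genes were compared per kilobase of exon. In WT, *Eomes* led at 8.35 ± 0.35 CPM per kb (SD, n = 3), followed by *Fgf8* at 4.08 ± 0.67, with the other 8 genes below 1 CPM per kb. The neighbours *Wnt3*, *T*, *Gsc* and *Sp5*, at 0.87 to 0.68, overlapped in their ranges over the libraries, as did *Lhx1* and *Mixl1*. In KO, *Eomes* stood at 5.43 ± 0.06 and *Gsc* came next at 1.20 ± 0.18, overlapping *Fgf8* at 0.77 ± 0.28. *Mesp1*, *Wnt3*, *T*, *Evx1* and *Sp5* lay at the bottom of the KO order, from 0.14 down to 0.083, and each overlapped the next. In KO_PAPC, *Fgf8* took the lead at 10.6 ± 0.4 CPM per kb, and *Eomes* at 6.997 ± 0.308 and *T* at 6.68 ± 0.50 overlapped. *Sp5* followed at 2.81 ± 0.13, and *Lhx1* was the lowest at 0.14 ± 0.04, overlapping *Mesp1*.

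The signals that induce the streak moved in several directions. Of 25 genes for ligands, receptors and their cofactors, 23 were tested in KO against WT, with 4 higher and 14 lower, and in KO_PAPC against KO, with 12 higher and 7 lower. In KO_PAPC against WT 24 were tested, 11 of them higher and 7 lower. Scaled to library totals, PA/PC gave 11 higher and 11 lower against KO and 8 higher and 12 lower against WT. The medians lay near 0, at -0.14 (log2) for KO against WT, 0.085 for KO_PAPC against KO and 0.032 for KO_PAPC against WT. *Nodal*, the main inducer, had a level of 136 ± 3 CPM in WT EBs, 86.9 ± 3.0 in KO EBs and 117 ± 4 with PA/PC, falling in KO (log2 -0.64, adjusted p = 3.73e-19) and rising with PA/PC (0.59, adjusted p = 4.4e-18). Its co-receptor *Tdgf1* (Cripto) was at 381 ± 14, 298 ± 3 and 649 ± 13 CPM. *Wls*, which carries Wnt proteins to the cell surface, fell in KO by 2.22 ± 0.05 (log2) and rose with PA/PC by 2.03 ± 0.06, and ended slightly below WT (log2 -0.19 ± 0.04, adjusted p = 0.000112). *Fgfr1*, the receptor of FGF8 in the streak, was at 219 ± 3, 119 ± 1 and 251 ± 8 CPM.

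*Bmp4*, the BMP ligand of the extraembryonic ectoderm and early mesoderm, rose in KO from 11.2 ± 0.3 to 32.0 ± 2.1 CPM (log2 1.51 ± 0.06, adjusted p = 1.31e-21) and was at 5.13 ± 0.21 with PA/PC, below both KO (log2 -2.47 ± 0.07, adjusted p = 4.05e-27) and WT (log2 -0.96 ± 0.08, adjusted p = 1.99e-10). *Wnt3a*, the Wnt ligand of the later streak, stayed between 6 and 16 counts per library. It was tested in KO_PAPC against WT alone, where the log2 difference was 0.089 ± 0.378 (adjusted p = 0.842).

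Inhibitors of these signals were mostly lower in KO than in WT and higher with PA/PC than in KO. Of the 13 listed, 11 were tested in KO against WT, of which 10 were lower and 1 was not called. Of the 12 tested with PA/PC, 10 were higher and 1 lower against KO, and 8 were higher and 3 lower against WT (5 and 4 with library totals). Their median log2 changes were -1.44 and 1.59 in the former comparisons and 0.38 in KO_PAPC against WT. *Lefty1*, the feedback inhibitor of Nodal, had 279 ± 8 CPM in WT EBs, 95.1 ± 3.5 in KO EBs and 339 ± 5 with PA/PC. *Sfrp1* and *Sfrp2*, secreted Wnt antagonists, fell in KO by 1.56 ± 0.03 and 1.62 ± 0.05 (log2) and rose with PA/PC by 1.93 ± 0.03 and 2.52 ± 0.04, with edgeR adjusted p of 4.12e-29 and 1.68e-24 in KO and of 5.59e-34 and 2.34e-34 with PA/PC.

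**Figure D4:**
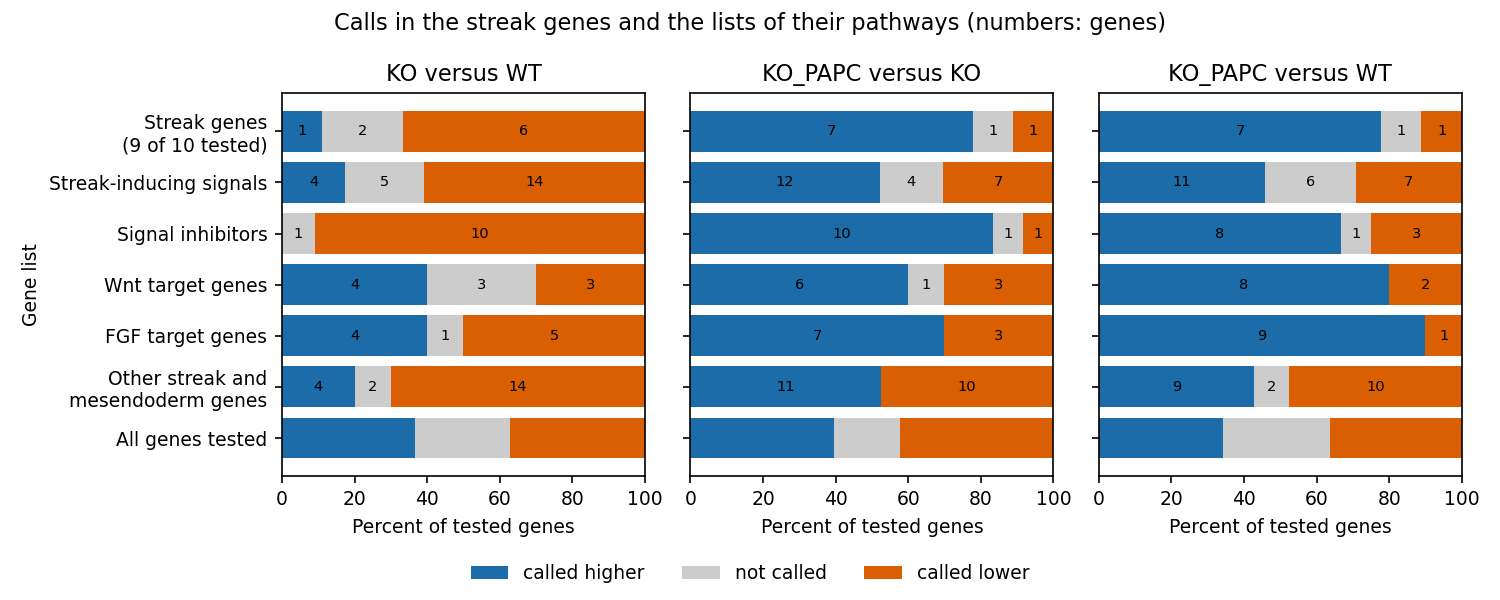
Percent of tested genes called higher (blue), not called (grey) or called lower (orange) in 3 comparisons, for the streak genes, 5 lists of related genes and all genes tested. Numbers inside the bars count genes, and the inhibitor list shows 10 genes called lower in KO and 10 called higher with PA/PC against KO.

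General Wnt target genes moved both ways. Of 10 tested in each comparison, 4 were higher and 3 lower in KO, 6 higher and 3 lower with PA/PC against KO, and 8 higher and 2 lower with PA/PC against WT (1 lower by DESeq2, with RLE factors, a joint fit, no count filter or a replicate block, or when a WT library or KO_PAPC replicate 1 or 3 was left out). The medians were 0.042, 0.69 and 0.63 on the log2 scale. *Axin2*, the feedback target used as a readout of canonical Wnt signalling, was higher in KO (13.7 ± 0.5 CPM in WT, 23.9 ± 0.5 in KO; log2 0.80 ± 0.06, adjusted p = 1.08e-14) and lower with PA/PC than in KO (17.0 ± 0.3 CPM; log2 -0.33 ± 0.06, adjusted p = 1.56e-06). *Notum*, a secreted enzyme that inactivates Wnt proteins, was at 24.1 ± 0.2, 56.5 ± 2.3 and 6.43 ± 0.69 CPM in WT, KO and KO_PAPC. *Lef1*, a nuclear partner of β-catenin, was at 24.95 ± 0.21 CPM in WT and 24.8 ± 0.3 in KO, a difference that did not pass (log2 -0.0094 ± 0.0484, adjusted p = 0.869), and rose to 96.5 ± 1.3 with PA/PC. *Tnfrsf19* was at 25.8 ± 1.4, 20.1 ± 1.3 and 40.4 ± 0.4 CPM.

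FGF target genes, of which 10 were tested, had 4 higher and 5 lower in KO, 7 higher and 3 lower with PA/PC against KO, and 9 higher and 1 lower against WT (0 lower by DESeq2, or without WT replicate 2 or KO_PAPC replicate 2), with medians of -0.11, 0.74 and 0.60 on the log2 scale. *Dusp6*, a phosphatase that damps ERK and a common readout of FGF signalling, was at 158 ± 2, 85.3 ± 0.8 and 207 ± 4 CPM in WT, KO and KO_PAPC. *Spry2*, another feedback inhibitor, was at 168 ± 3, 124 ± 3 and 275 ± 4 CPM. *Egr1*, an immediate early gene that many stimuli induce, was at 25.5 ± 0.3, 20.8 ± 0.3 and 105 ± 3 CPM. All 3 fell in KO and rose with PA/PC, above WT.

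Among 24 further genes of the streak and its first derivatives, 20 were tested in KO against WT, with 4 higher and 14 lower. Of 21 tested with PA/PC, 11 were higher and 10 lower against KO, and 9 were higher and 10 lower against WT. Median log2 changes were -0.80, 0.54 and -0.071 in these comparisons. *Cdh2* (N-cadherin) was at 21.2 ± 0.8, 8.09 ± 0.57 and 40.5 ± 1.2 CPM, and *Dll1*, the Notch ligand of paraxial mesoderm and of neural precursors, at 15.2 ± 0.8, 5.35 ± 0.32 and 22.5 ± 0.8 CPM, in WT, KO and KO_PAPC. *Cyp26a1*, which degrades retinoic acid in the late streak, did not pass between WT and KO (40.6 ± 1.9 and 39.1 ± 0.3 CPM; adjusted p = 0.244) and fell with PA/PC to 7.93 ± 0.45.

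Markers of other cell types also differed between the groups. The 6 primed epiblast markers summed to 655 to 659 CPM in WT, 516 to 526 in KO and 1308 to 1339 in KO_PAPC, with 5 of 6 lower in KO and 6 of 6 higher with PA/PC against either group. *Dnmt3b* was at 218 ± 3, 150 ± 1 and 619 ± 10 CPM and *Pou3f1* at 23.8 ± 1.4, 18.3 ± 0.9 and 76.0 ± 2.0. The 8 neuroectoderm markers summed to 160 to 167, 72.8 to 78.5 and 247 to 250 CPM, with 6 of 7 tested lower in KO and 7 of 8 higher with PA/PC against KO, among them *Sox1* at 71.7 ± 3.1, 18.5 ± 1.1 and 120 ± 1 CPM. Of the 9 pluripotency genes, 7 were higher in KO than in WT and 7 lower with PA/PC than in KO, among them *Tfcp2l1* at 103 ± 1, 242 ± 4 and 34.2 ± 0.6 CPM. The part of these cell types in the streak gene values was not tested.

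**Figure D5:**
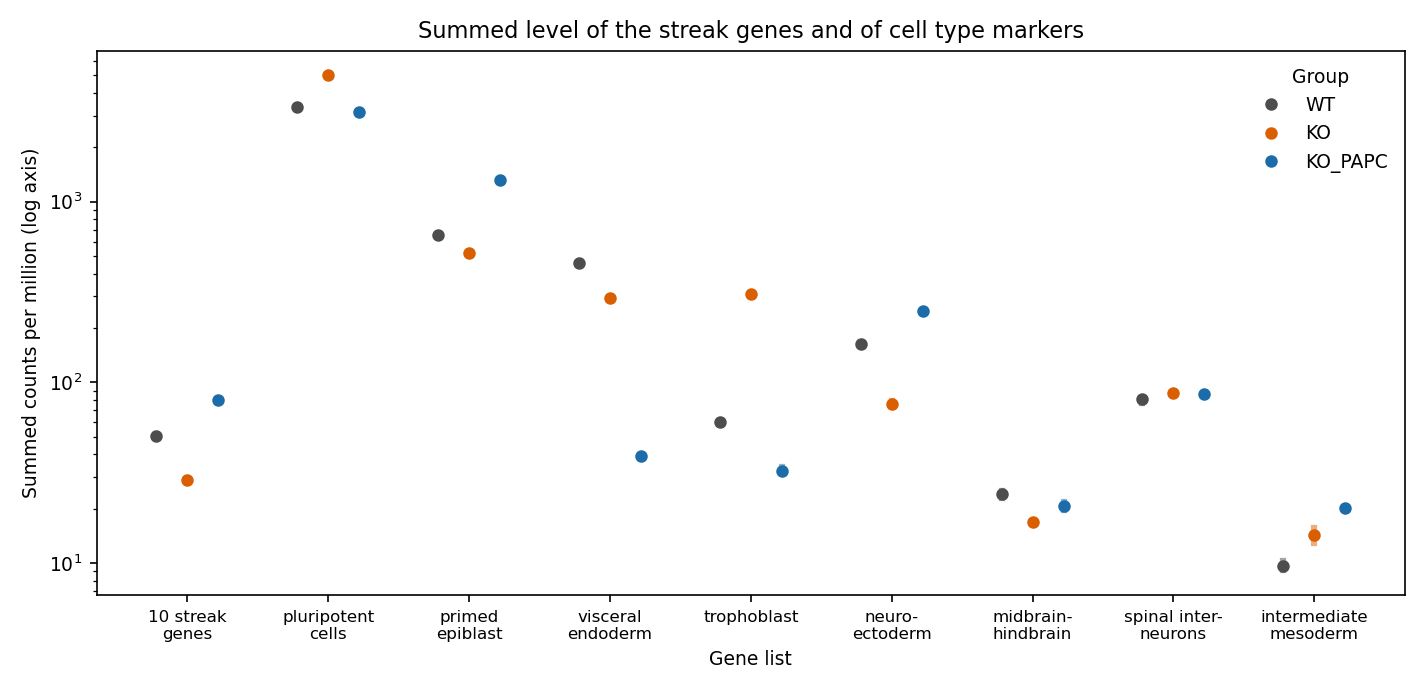
Summed CPM, on a log axis, of the 10 streak genes and of 8 lists of cell type markers in each group. Points are means of 3 libraries and bars their range, and visceral endoderm markers stand at 38.1 to 39.8 CPM in KO_PAPC against 456 to 465 in WT.

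Genes with the most similar pattern were sought for the 9 members with a mean of at least 1 CPM, among 14186 genes, by the distance between the 3 group means of log2(CPM + 0.1) after centring. *T* had no close match, with *Acta2* (smooth muscle actin), *Adm* and *Fos* at distances of 0.63, 0.90 and 1.04. *Evx1* was nearest to *Nkx1-2*, a homeobox gene of the caudal streak (0.20), then to *Rxrg* and *Fos*. *Nkx1-2* had 1.42, 0.50 and 7.63 CPM in WT, KO and KO_PAPC. *Sp5* was nearest to *Bhlhe40*, *Pcdh7* and *Vrtn* (0.45 to 0.55). *Fgf8* was nearest to *Cxcl12*, a chemokine (0.045), *Car14* and *Egln3*, and *Wnt3* to *Six3os1*, *St6gal2* and *Gm49329* (0.098 to 0.15). *Mixl1* was nearest to *Gm23935*, *Lef1* and *Thbs2* (0.078 to 0.15), *Eomes* to *Plcl2*, *Cyba* and *Ncstn*, *Lhx1* to *Mib2*, *4732471J01Rik* and *Abhd6*, and *Gsc* to *Atp8a2*, *mt-Ta* and *Ntn1*. Each distance rests on 3 group means of 9 libraries.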

How the data were processed

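RNA of the 9 libraries was sequenced with an unstranded TruSeq kit, 51 cycles, single end. The authors deposited whole-number read counts per Ensembl gene, not normalized. Per the submitters' processing notes, bcl2fastq 2.20.0.422, STAR 2.7.2b, build GRCm38 and featureCounts 1.6.5 were used, and the study's methods describe an older mapper for part of the libraries. Multi-mapping reads and those on more than 1 gene were left out of the counts, which lowers genes with shared or overlapping sequence (at most 2.07% of a member's 51-base words lie in another gene, in *Eomes*). Symbols and positions came from GENCODE M21, in which 327 of 55471 IDs had no match. The number of per-sample columns left unused was 0.

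Groups and replicate numbers were taken from the labels. The labels do not say whether replicates were separate cultures. The study's text calls them biological replicates, and for the comparison of KO with KO_PAPC describes independent pools of EBs and a vehicle control. All *Tnfaip2*-/- libraries come from 1 clone, so p-values measure the spread between such samples. Every pair of replicates differed by more than sampling noise. Each contrast was fitted on its own 6 libraries across all genes by edgeR 4.0.16 (R 4.3.3; quasi-likelihood F test), with TMM scaling, filterByExpr and Benjamini-Hochberg adjustment, and called at an adjusted p under 0.05. SE was the absolute log2 fold change divided by the square root of F. CPM used library totals, whereas fold changes used TMM, and the 2 can differ in KO_PAPC comparisons, where library totals move the median of all genes by -0.166 (against KO) and -0.165 (against WT). The ± values are the SE of a fold change or the SD over the libraries of a group, and both include the spread between replicates. The floor of 3 counts covers counting error only. The scripts were tested on simulated data.

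The fit had no replicate block, as the study's contrasts describe none. Same-numbered replicates did not deviate together (correlations from -0.040 to 0.068). Alternatives were DESeq2 1.42.0, RLE factors, library totals, 2 other count filters, a joint fit of the 3 groups, a replicate block, a minimum change of 2-fold, and leaving out each library. From each other list at most 3 genes were named, those with the smallest adjusted p in KO_PAPC versus KO, plus *Wnt3a*, *Nodal*, *Bmp4* and *Axin2*. For each member the 3 genes nearest in pattern were named. The markers *Tubb3*, *Pax2*, *En2*, *Pax8*, *Tpbpa* and *Prl3d1* lie outside this rule and were named after their values were seen. The members, lists and markers were chosen with earlier results of these data known.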

Additional observations from a re-analysis of the deposited data

How the results depend on the processing

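Over all alternatives, the members' fold changes held both sign and call in 366 cases, lost the call in 8 (all at the minimum change of 2-fold), gained it in 4 and reversed in 0. Under a minimum change of 2-fold, the members called higher in KO versus WT went from 1 to 0, and those called lower with PA/PC went from 1 to 0 against KO and from 1 to 0 against WT, since the test asks for a larger change. In KO_PAPC versus WT, library totals raised the members called lower from 1 to 2, through *Eomes*, and so did leaving out WT replicate 2, so that this count ran from 1 to 2 over the single libraries left out. The members called lower in KO versus WT ran from 6 to 7, through *Lhx1* without WT replicate 3 or KO replicate 3. With a replicate block, 1 member was higher and 6 lower in KO versus WT, and 7 were higher and 1 lower with PA/PC against either group, as without the block, and it changed no member's call. Same-numbered replicates share only a number. Counts of calls in the members and related lists stayed within 1.5 times in 455 cases and not in 49, of which most came from the 2-fold minimum. In KO_PAPC versus WT, the Wnt targets called lower went from 2 to 1 by DESeq2, with RLE factors, with no count filter, with the joint fit, with the block, without any 1 of the WT libraries, and without KO_PAPC replicate 1 or 3, and the FGF targets called lower from 1 to 0 by DESeq2 and without WT replicate 2 or KO_PAPC replicate 2. With library totals, the inducing signals called lower with PA/PC rose to 11 against KO and 12 against WT, and the inhibitors called higher against WT fell to 5. Members with under 20 counts in every library of a group (*Mesp1* in all groups, *Evx1* in WT, and *T*, *Sp5*, *Wnt3* and *Evx1* in KO) have wide counting error, and folds against KO depend on these few reads.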

Other observations

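The genes named here were chosen after their values were seen, from the lists of inducing signals and of further streak genes. *Wnt8a* and *Hoxb1*, genes of the posterior streak, rose with PA/PC against KO by 1.77 ± 0.12 and 2.28 ± 0.11 on the log2 scale (edgeR adjusted p = 3.65e-16 and 2.43e-20), and *Nkx1-2* rose by 4.08 ± 0.16 (adjusted p = 1.67e-23). *Foxa2* and *Sox17*, factors of the anterior streak and endoderm that visceral endoderm also makes, fell by 2.31 ± 0.17 and 2.95 ± 0.18 (adjusted p = 9.17e-15 and 1.18e-17). They were at 6.87 ± 0.25 and 11.1 ± 0.4 CPM in WT EBs, 4.05 ± 0.27 and 6.19 ± 0.97 in KO EBs, and 0.72 ± 0.07 and 0.71 ± 0.17 in KO_PAPC.

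*Hand1*, a bHLH gene of extraembryonic and lateral mesoderm and of trophoblast, had 0.78 ± 0.08 CPM in WT EBs, 4.53 ± 0.52 in KO EBs and 0.22 ± 0.07 with PA/PC. *Kdr*, the VEGF receptor of blood and vessel precursors, was at 1.94 ± 0.49, 6.42 ± 0.50 and 0.52 ± 0.24 CPM. *Mesp2*, the neighbour and relative of *Mesp1*, was at 2.29 ± 0.32, 3.46 ± 0.40 and 1.19 ± 0.12 CPM. All 3 rose in KO against WT and fell with PA/PC against KO and against WT. *Pdgfra*, a receptor of paraxial mesoderm and of primitive endoderm, fell in KO by 1.41 ± 0.05 (log2) and with PA/PC against KO by 2.34 ± 0.10.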
